A study of Mus musculus with 6 samples.

Results

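The genes described here move choline, load acetylcholine into vesicles, break it down, or phosphorylate choline for membrane lipid. They were chosen by name, 10 in all: Slc18a3, Slc5a7, Ache, Bche, Slc44a1, Slc44a2, Chka, Chkb, Pcyt1a and Pcyt1b. Each gene has at most 1 probe set, and 9 of the 10 were matched to one among the 17306 probe sets of the array that are not controls. Chkb, the gene of choline kinase beta, was not analysed here. The rule named these genes for their roles and used no measured value, but they were chosen with earlier results of these data known.

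RNA of the habenula, dissected from adult mice (6 to 12 weeks old) that carried the transgene Chat DW167, was hybridised to 6 Affymetrix arrays. In these mice a bacterial artificial chromosome (BAC) of the choline acetyltransferase gene Chat drives a tagged ribosomal protein, which lets the ribosomes of cholinergic neurons be captured together with the messenger RNA they carry (TRAP, for translating ribosome affinity purification). For 3 arrays, called IP, the RNA was that captured on tagged ribosomes, here those of medial habenula cholinergic neurons. The other 3, called UB, received the cytoplasmic polysomal RNA that stayed unbound in the same preparations. No drug treatment is given in the labels of any array, and every mouse carried the transgene. The UB fraction may still hold RNA of cholinergic neurons, since capture need not be complete. The sources used here do not say whether animals were pooled for a preparation. Chat itself was not analysed here.

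Acetylcholine is made from choline and acetyl-CoA by choline acetyltransferase and is loaded into synaptic vesicles by the vesicular transporter VAChT, the product of Slc18a3. After release, acetylcholinesterase splits it, and the high-affinity transporter CHT1, the product of Slc5a7, brings the freed choline back into the terminal. In every cell choline also feeds the Kennedy pathway: a choline kinase makes phosphocholine, the enzyme CCT, encoded by Pcyt1a and Pcyt1b, turns that into CDP-choline in the step that sets the rate, and a phosphotransferase joins it to diacylglycerol to give phosphatidylcholine, the main membrane phospholipid. Cholinergic neurons of the medial habenula send their axons to the interpeduncular nucleus and draw on the same choline for both uses.

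The results are set out along 2 contrasts. The first is between the genes of acetylcholine release and choline recapture and those of phospholipid synthesis, and the second between the paralogs Pcyt1a and Pcyt1b. The synthesis genes did not move together. With the scaling used here, Pcyt1a was higher in IP, like Slc18a3 and Slc5a7, while Chka and Pcyt1b were lower. The 300 bases around the annotated start of Slc18a3, Slc5a7, Pcyt1a and Pcyt1b (250 before and 50 after) are shown. They are from RefSeq, build GRCm38.p6, each 5′ to 3′ on the strand of its gene. Capitals mark the GC box GGGCGG on either strand, the letters read by factors of the Sp family, and overlapping matches run together.
Slc18a3, chr14:32464801-32465100, minus strand: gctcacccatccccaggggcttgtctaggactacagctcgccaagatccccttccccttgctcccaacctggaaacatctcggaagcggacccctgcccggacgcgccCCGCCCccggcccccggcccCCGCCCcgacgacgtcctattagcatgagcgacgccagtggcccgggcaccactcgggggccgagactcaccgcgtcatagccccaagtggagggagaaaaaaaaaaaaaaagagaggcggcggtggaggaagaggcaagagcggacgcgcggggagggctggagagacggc
Slc5a7, chr17:54298985-54299284, minus strand: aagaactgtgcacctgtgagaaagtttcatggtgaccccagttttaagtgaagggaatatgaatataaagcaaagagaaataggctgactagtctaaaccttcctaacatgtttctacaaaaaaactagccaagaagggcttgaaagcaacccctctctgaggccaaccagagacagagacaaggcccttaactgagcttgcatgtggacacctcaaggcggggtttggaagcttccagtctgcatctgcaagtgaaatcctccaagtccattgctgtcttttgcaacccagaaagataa
Pcyt1a, chr16:32430671-32430970, plus strand: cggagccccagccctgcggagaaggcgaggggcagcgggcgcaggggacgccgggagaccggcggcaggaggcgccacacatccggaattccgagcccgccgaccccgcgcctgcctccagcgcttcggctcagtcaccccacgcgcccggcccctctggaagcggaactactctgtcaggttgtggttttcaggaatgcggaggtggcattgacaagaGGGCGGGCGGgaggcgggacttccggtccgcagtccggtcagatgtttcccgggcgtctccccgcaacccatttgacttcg
Pcyt1b, chrX:93654613-93654912, plus strand: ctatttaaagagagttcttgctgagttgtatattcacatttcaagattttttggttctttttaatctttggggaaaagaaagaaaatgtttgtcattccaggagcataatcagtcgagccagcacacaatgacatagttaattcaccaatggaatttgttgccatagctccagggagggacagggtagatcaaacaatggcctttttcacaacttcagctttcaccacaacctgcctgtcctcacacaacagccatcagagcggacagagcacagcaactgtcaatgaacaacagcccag
All 10 genes had such a window, 15 windows in all, and the first listed is shown for Pcyt1a, which has 3, and for Pcyt1b, which has 2. The window of Slc18a3 held 2 GC boxes and had 67.0% G and C, while that of Slc5a7 held 0 GC boxes, 1 TATAAA and 44.7% G and C. The 2 genes that carry acetylcholine and recapture choline thus have starts of unlike base composition. The window of Pcyt1a held 2 GC boxes (69.7% G and C) and that of Pcyt1b 0 (42.0% G and C), but the windows of each gene varied: the third of Pcyt1a held 0, with 63.3% G and C, and the second of Pcyt1b held 0, with 53.3%. The windows of Chka and Slc44a1, both lower in IP, are not shown. That of Chka held 3 GC boxes (68.7% G and C) and the first of Slc44a1 held 3 (79.7%). Of the 10 genes, 8 had a GC box in at least 1 window. A link between these starts and the levels was not tested. Of 32851 windows of this length, 35.7% held GGGCGG and 13.6% held TATAAA on either strand, and the median share of G and C was 52.7%. In RefSeq, Slc18a3 lies wholly inside the span of Chat, on chromosome 14. A BAC of Chat can therefore carry a further copy of Slc18a3. The sources used here do not give the extent of the BAC in this line, and the part of such a copy in the Slc18a3 level was not tested. Both fractions came from the same mice, all with the transgene, so these arrays hold no comparison without it.

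Levels below are log2 values as deposited. A level of 50 on the linear scale (log2 5.64) was taken as the lowest that counts as signal, and 7533 to 7579 probe sets reached it on the IP arrays, against 8618 to 8659 on the UB arrays. Fold changes are IP over UB after the offset between the fractions on 18 biotinylated control probe sets (0.02 ± 0.21, SE over arrays) was taken off. The offset was taken off as a fixed value. Its SE of 0.21 is therefore left out of the SE and p of each gene, and small changes are less certain than these show. Slc5a7 and Pcyt1a had the same value on every UB array, and Slc44a2 and Chka on every IP array. Such ties make their SE and p too small. The arrays number 3 per fraction, which limits the precision of every value. Of 11 markers of medial habenula neurons, 11 were called higher in IP by limma, and of 9 oligodendrocyte, 5 GABAergic and 10 thalamic and lateral habenula markers tested, all 24 were called lower. Of those 24, 19 passed the filter through UB only and so had to come out lower, and what they show is that they had no signal in IP. Of 4 microglial markers tested, C1qa had signal in IP (7.77 in IP, 6.88 in UB, not called), while C1qb, Csf1r and Aif1 had none and were called lower. Of 7 hippocampal and cortical markers, Nrgn, Neurod2 and Neurod6 were called higher (12.63, 8.35 and 7.06 in IP, against 9.93, 5.88 and 5.19 in UB), Camk2a, C1ql2 and Dsp had no signal in IP and were called lower, and Wfs1 was not called. Of 4 ependyma and choroid plexus markers tested, Ttr was called lower and still had 10.50 in IP, against 14.08 in UB. Otx2 was called higher (9.88 in IP, 8.64 in UB), and Tmem212 and Ccdc153 had no signal in IP and were called lower.

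Slc18a3, the vesicular transporter gene, was strong in IP and without signal in UB. Its levels were 11.07, 11.95 and 12.27 on the IP arrays, against 3.93, 4.31 and 3.93 on the UB arrays (probe set 20508_at). The fractions lay far apart, with every IP array strong and no UB array at 50. Slc18a3 averaged 11.76 ± 0.62 in IP and 4.05 ± 0.22 in UB (SD, n = 3 each), a log2 fold change of 7.69 ± 0.35 (SE, limma adjusted p = 2.88e-05), or at least 68.8-fold with UB set at 50. The bound was 202-fold with equal medians of all probe sets, and it was 23.3-fold with the fractions scaled on the poly-A controls (Bacillus subtilis control transcripts, a scaling chosen after the data were seen). Within the 3 preparations, the levels in IP minus UB were 7.14, 7.64 and 8.35. The part of a further Slc18a3 copy that the BAC can carry was not tested for any of these values. In RNA of a tissue, fewer cells of a type and less RNA per cell cannot be told apart, and this holds for each difference below.

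Slc5a7, the high-affinity choline transporter, was also higher in IP, from a much lower level. It had 6.39, 6.39 and 6.16 on the IP arrays, against 2.05 on all 3 UB arrays, the lowest level in those arrays (63993_at). All 3 IP arrays were just over 50 and all 3 UB arrays were at the bottom of the scale, with no overlap. The log2 fold change was 4.25 ± 0.07 (limma adjusted p = 5.80e-07). Since UB had no signal, the data allow only a bound, at least 1.57-fold, and that bound rested on the scaling: it was 4.64-fold with the medians of all probe sets made equal and was lost with the poly-A controls.

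**Figure D1:**
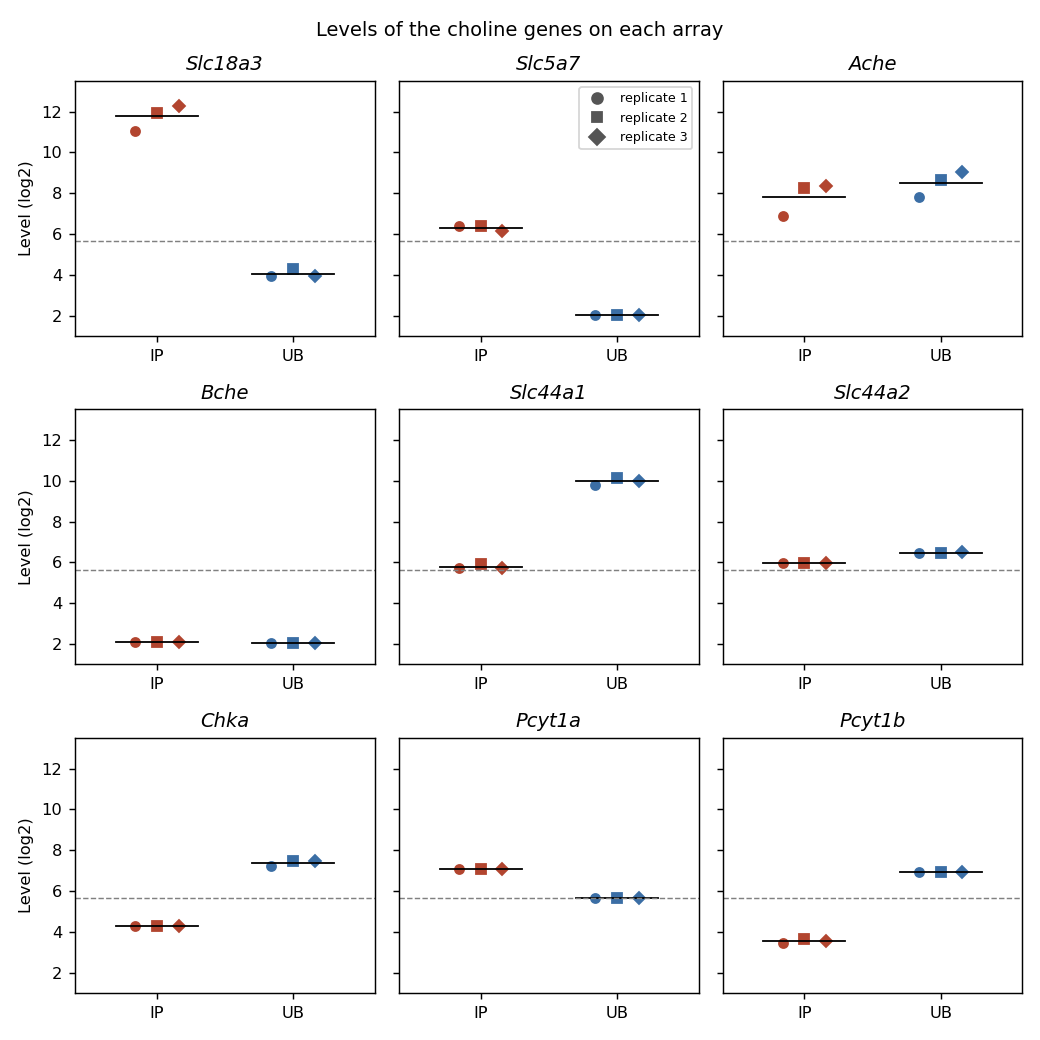
Level (log2, as deposited) of the 9 choline genes on each array, with IP (red) left of UB (blue). Points are arrays with a shape for each replicate number, black bars are means of 3 arrays, and the dashed line is a level of 50. Slc18a3, Slc5a7 and Pcyt1a sat higher in IP, Slc44a1, Chka and Pcyt1b lower, Slc44a2 lay close in both fractions, Ache overlapped and Bche was at the bottom of both.

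Of the genes that break acetylcholine down, Ache had clear signal in both fractions and Bche in neither. Ache, the acetylcholinesterase gene, had levels of 6.88, 8.23 and 8.35 on the IP arrays, against 7.80, 8.62 and 9.03 on the UB arrays (11423_at). The fractions overlapped, and the replicate 1 array was the lowest of both. The log2 fold change was -0.68 ± 0.55 and was not called (limma adjusted p = 0.314). Within each preparation IP was the lower one, by -0.92, -0.39 and -0.68, and with the replicate number as a block Ache was called lower (limma adjusted p = 0.0270). With the medians of all probe sets made equal, its value was 0.88 and not called (limma adjusted p = 0.155). Bche, the butyrylcholinesterase gene, had 2.10 on the 3 IP arrays and 2.05 on the 3 UB arrays, the lowest value either fraction holds (12038_at), and was not tested. No fold is given for it, since neither fraction had signal.

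The choline transporter-like genes encode a family of low-affinity choline carriers of plasma membrane and mitochondria. Slc44a1 had levels of 5.72, 5.91 and 5.72 on the IP arrays, against 9.82, 10.15 and 9.996 on the UB arrays (100434_at). Every IP array lay just over 50 and every UB array far above it. Slc44a1 was 18.6-fold lower in IP (log2 fold change -4.22 ± 0.11, limma adjusted p = 2.72e-06). The log2 value was -2.66 with equal medians of all probe sets and -5.78 with the poly-A controls. Slc44a2 had 5.98 on all 3 IP arrays, against 6.46, 6.46 and 6.51 on the UB arrays (68682_at). The fractions did not overlap, but the gap was small and its direction rested on the scaling. It was called lower (log2 fold change -0.52 ± 0.02, limma adjusted p = 4.82e-06), was not called with the control offset taken per array (limma adjusted p = 0.111), and was called higher with quantile normalization (0.44) and with the medians of all probe sets made equal (1.04).

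Chka encodes choline kinase alpha, which makes phosphocholine. It had 4.27 on all 3 IP arrays, against 7.21, 7.44 and 7.44 on the UB arrays (12660_at). No IP array reached 50 and all UB arrays did, so Chka was at least 3.33-fold lower in IP (log2 fold change -3.11 ± 0.07, limma adjusted p = 2.08e-06). The bound was 1.13-fold with the medians of all probe sets made equal.

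The paralogs that encode CCT, the rate-setting enzyme of CDP-choline synthesis, went opposite ways. Pcyt1a, the form found in most tissues, had 7.07, 7.07 and 7.09 on the IP arrays, against 5.66 on all 3 UB arrays (13026_at). The UB arrays lay only just over 50, and no IP value came near them. Pcyt1a was 2.64-fold higher in IP (log2 fold change 1.40 ± 0.01, limma adjusted p = 1.84e-08), although with the fractions scaled on the poly-A controls it was called lower by a small step (-0.16). Pcyt1b, the form known from brain and gonads, had 3.42, 3.63 and 3.54 on the IP arrays, against 6.91, 6.95 and 6.95 on the UB arrays (236899_at). No IP array reached 50, and Pcyt1b was at least 2.47-fold lower in IP (log2 fold change -3.42 ± 0.06, limma adjusted p = 5.12e-07), a bound that was lost with the medians of all probe sets made equal, where the fitted value was -1.86.

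A scaling of whole arrays cancels in the difference between 2 genes on the same array, so the contrast of 2 genes between fractions does not rest on the offset. Pcyt1a minus Pcyt1b was 3.65, 3.44 and 3.55 on the IP arrays, against -1.25, -1.28 and -1.28 on the UB arrays. The sign differed between the fractions on every array, and the change of the difference was 4.82 on the log2 scale (2.71 with levels under 50 raised to 50). The sign within an array compares 2 probe sets and carries no order of transcript amounts. A constant difference in brightness between the probes cancels in the change between fractions. Replicates were normalized within groups, and a difference between fractions that varies with level does not cancel. With quantile normalization the change of Pcyt1a minus Pcyt1b was 4.61. For Slc18a3 minus Chka, the vesicular transporter against choline kinase, the change was 10.80 (7.84 with levels raised to 50). For Slc5a7 minus Slc44a1, the transporter of cholinergic terminals against the general one, it was 8.47 (4.88 with levels raised to 50). Slc18a3, Slc5a7, Chka and Pcyt1b each had signal in 1 fraction only, so the values with levels raised to 50 are the smallest changes these levels allow. Passing the filter through 1 fraction also fixed the direction of each of these genes. The sign of the change for Slc18a3 minus Chka was therefore set in advance, and that of 1 gene in each other pair.

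**Figure D2:**
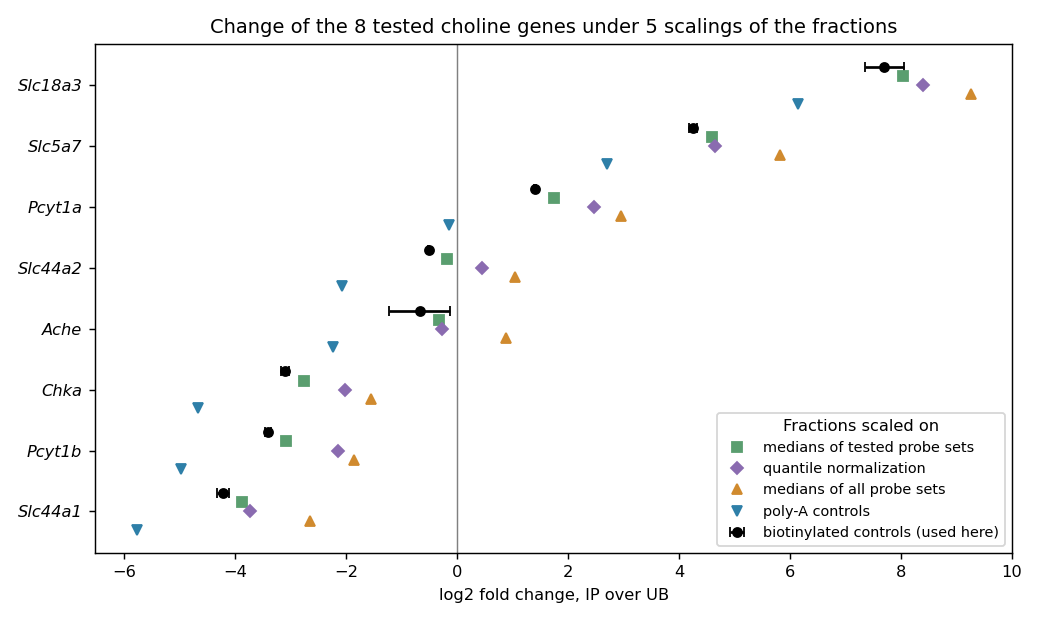
Log2 fold change of IP over UB (x axis) for the 8 tested choline genes under 5 ways of scaling the fractions, with bars of SE on the values used here (black circles). Slc18a3 and Slc5a7 stayed right of 0 and Slc44a1, Chka and Pcyt1b left of it under all 5, whereas Ache, Slc44a2 and Pcyt1a crossed 0 under at least 1.

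Counted together, 8 of the 9 genes were tested, with 3 called higher and 4 lower in IP. Over the whole table tested, limma called 30.9% higher and 43.5% lower, 74.5% in either direction. The median log2 fold change of the 8 was -0.60, beside -0.17 for all tested probe sets. All IP arrays lay above all UB arrays for 3 of the 8 and below them for 4, against 33.4% and 46.6% of all tested probe sets, so that 7 of the 8 did not overlap, against 80.0%. These shares lie near the background and do not set the choline genes apart. Moreover, Slc18a3, Slc5a7, Chka and Pcyt1b passed the filter on dim probe sets through 1 fraction only and so had to differ. The split of calls over the whole table also followed the scaling: 41.5% of called probe sets were higher with the biotinylated controls, 55.4% with the medians of tested probe sets made equal, 53.4% with quantile normalization, 80.8% once the medians of all probe sets were equal and 4.98% with the poly-A controls.

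**Figure D3:**
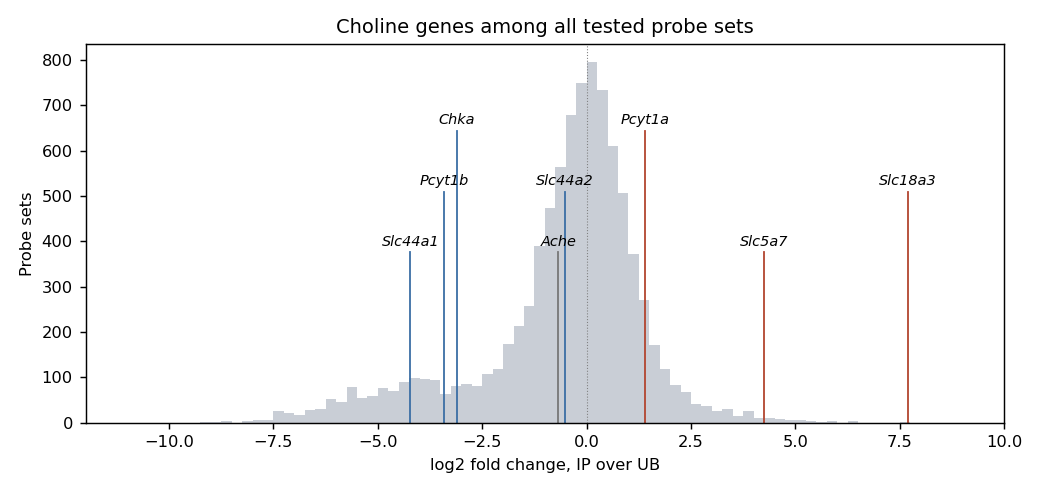
Number of probe sets (y axis) by log2 fold change of IP over UB (x axis) for all 8960 tested, in steps of 0.25 (grey), with a line for each tested choline gene (red called higher, blue called lower, grey not called). Lines show fitted values, which for Slc18a3, Slc5a7, Chka and Pcyt1b rest on a fraction without signal. Slc18a3 at 7.69 lay at the far right end, Slc5a7 at 4.25 in the right tail, and Slc44a1, Pcyt1b and Chka between -4.22 and -3.11 in the long left side.

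Around these genes, 63 others of choline handling were listed by role, of which 54 had a probe set and 28 were tested. Of the 28, limma called 7 higher and 15 lower (over the whole table, 30.9% and 43.5%), with a median of -0.51, beside -0.17 over the whole table, and 5 of the 28 passed the filter through 1 fraction only. All of the 7 stayed above 0 with the medians of all probe sets made equal, but 2 with the poly-A controls. Of the 15, all stayed below 0 with the poly-A controls, but 4 with the medians of all probe sets made equal. Among genes with signal in both fractions, Gdpd5 kept its direction (higher) and Mboat2 its own (lower) under every scaling of whole arrays and under quantile normalization. The fitted values of Pla2g6, Pld2, Gpcpd1 and Chdh also kept their sign, but each had no signal in 1 fraction and its bound was lost under a scaling, that of Pla2g6 with the poly-A controls and the others with the medians of all probe sets made equal. With the replicate number as a block, 6 of the 28 changed their call, and each is given with its gene.

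Partners and relatives of the acetylcholine genes were mostly dim. Prima1, the membrane anchor of acetylcholinesterase, had 4.75, 5.16 and 5.24 on the IP arrays, against 2.05 on all 3 UB arrays, and did not reach 50 on any. The monoamine transporters Slc18a1 and Slc18a2, which belong to the same family as Slc18a3, averaged 2.12 and 3.59 in IP and 2.05 and 2.30 in UB, all under 50. Lynx1, a membrane-bound modulator of nicotinic receptors, was strong in both fractions and 2.54-fold lower in IP (10.59 ± 0.34 in IP and 11.92 ± 0.11 in UB, SD, n = 3 each, limma adjusted p = 0.00229), with a value of 0.21 when the medians of all probe sets were made equal.

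Of the 3 genes that supply cytosolic acetyl-CoA, 2 were called higher and 1 lower (over the whole table, 30.9% and 43.5%). Slc25a1, the mitochondrial citrate carrier, had 10.05, 10.19 and 10.81 on the IP arrays, against 9.39, 9.05 and 8.88 on the UB arrays, and was 2.34-fold higher (limma adjusted p = 0.00997), a call missed with the replicate block (limma adjusted p = 0.0502). Acly, which splits citrate to acetyl-CoA, was strong in both (12.74 ± 0.03 in IP and 12.38 ± 0.06 in UB, SD, n = 3 each, log2 fold change 0.35). Acss2, which makes acetyl-CoA from acetate, had a log2 fold change of -0.56 and was called lower. All of these 3 directions rested on the scaling: with the poly-A controls Slc25a1 and Acly were at -0.33 and -1.21, and with the medians of all probe sets made equal Acss2 was at 1.00.

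Of 5 other choline carriers with a probe set, only Flvcr1 had signal. Flvcr1, a plasma membrane carrier of heme and choline, averaged 8.84 ± 0.04 in IP and 9.51 ± 0.01 in UB (SD, n = 3 each), a log2 fold change of -0.69 (limma adjusted p = 1.62e-05) that was 0.87 with the medians of all probe sets made equal. Slc44a3, Slc44a4, Slc22a2 and Flvcr2 had no array at 50.

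Downstream of CCT, phosphatidylcholine synthesis and remodelling had 10 genes on the array. limma tested 6 of these, calling 0 higher and 5 lower in IP, where 30.9% of the whole table was higher and 43.5% lower. The enzymes of the last step parted in level. Chpt1, the cholinephosphotransferase, had 4.57 on all 3 IP arrays, against 6.05 on all 3 UB arrays, at least 1.34-fold lower, a bound lost with the medians of all probe sets made equal. Cept1, which uses both choline and ethanolamine, had 10.60, 10.79 and 10.41 on the IP arrays, against 10.80, 10.80 and 10.87 on the UB arrays (log2 fold change -0.24, limma adjusted p = 0.0965, not called). Cept1 thus had strong signal in both fractions, and Chpt1 had none in IP. The acyltransferase gene Mboat2 was 3.79-fold lower in IP (6.40 ± 0.14 in IP and 8.30 ± 0.26 in UB, SD, n = 3 each, limma adjusted p = 0.000286, and -0.36 on the log2 scale with the medians of all probe sets made equal). The phosphatidate phosphatase genes Lpin1 and Lpin2, which make diacylglycerol, were called lower at -0.48 and -1.31, as was the acyltransferase gene Lpcat3 at -1.34, which was not called with the replicate block (limma adjusted p = 0.0561). With the medians of all probe sets made equal, Lpin1, Lpin2 and Lpcat3 were at 1.08, 0.25 and 0.21. Pemt, which methylates phosphatidylethanolamine to phosphatidylcholine, had no array at 50.

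In the parallel ethanolamine branch, the ethanolamine kinase gene Etnk1 (5.92 in IP and 7.23 in UB) and the ethanolamine phosphotransferase gene Selenoi (5.90 in IP and 7.35 in UB) were called lower, at -1.33 and -1.47. Both were slightly above 0 with the medians of all probe sets made equal (0.23 and 0.09). The phosphatidylserine synthase genes Ptdss1 and Ptdss2 were at -0.14 and 0.16, of which Ptdss2 was called higher (-1.40 with the poly-A controls), and the phosphatidylserine decarboxylase gene Pisd was not called at -0.28. With the replicate block, Ptdss1 and Pisd were called lower (limma adjusted p = 0.0459 and 0.00735).

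Genes that free choline or its esters from lipid went both ways, as did the whole table. Of 15 on the array, 8 passed the filter, of which 3 were called higher and 3 lower. Over the whole table, 30.9% were called higher and 43.5% lower, and 3 of the 8 passed the filter through 1 fraction only. Gdpd5, a glycerophosphodiesterase that acts on glycerophosphocholine, had 11.36, 12.04 and 12.40 on the IP arrays, against 9.24, 9.48 and 9.24 on the UB arrays, and was 6.05-fold higher (limma adjusted p = 0.000968). The fractions were well apart, and the gene stayed above 0 in all scalings run (1.04 with the poly-A controls). Gpcpd1, another enzyme that splits glycerophosphocholine, had 5.02, 5.02 and 4.75 on the IP arrays, against 6.91 on all 3 UB arrays, and was at least 2.43-fold lower (limma adjusted p = 2.18e-05). Gdpd5 was thus higher and Gpcpd1 lower, although the bound of Gpcpd1, like those of Pld2 and Chdh below, was lost with the medians of all probe sets made equal. Pld2, a phospholipase D that releases choline from phosphatidylcholine, was at least 1.87-fold lower in IP, with 3.87 on all 3 IP arrays, against 6.53, 6.54 and 6.53 on the UB arrays. Gde1 was 2.57-fold higher (-0.20 with the poly-A controls), Pla2g6 was called higher with 5.70 in IP and 4.11 in UB (at least 1.03-fold), and Gdpd1 was called lower by a step of -0.06 that was 0.01 with quantile normalization and not called with the replicate block (limma adjusted p = 0.0725). Pld3 (0.08) and Pnpla6 (-0.55) were not called. Enpp6, a choline phosphodiesterase of oligodendrocytes, averaged 2.11 in IP and 4.51 in UB and was not tested.

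Of the genes that move phosphocholine into or out of sphingomyelin, Sgms1, a sphingomyelin synthase, was called higher at 0.72 (-0.84 with the poly-A controls), and the sphingomyelinase gene Smpd2 lower at -1.50 (0.06 with the medians of all probe sets made equal). Smpd1, the acid sphingomyelinase gene, was strong in both fractions and not called (0.56, limma adjusted p = 0.251). Within the 3 preparations IP was higher by 0.44, 0.55 and 0.73, and with the replicate block Smpd1 was called higher (limma adjusted p = 0.0125). Choline oxidation was represented by Chdh, the choline dehydrogenase gene, with 3.47, 3.53 and 3.47 on the IP arrays, against 6.47, 6.39 and 6.45 on the UB arrays, at least 1.75-fold lower in IP (limma adjusted p = 5.45e-08). The other 5 genes of this route with a probe set had no array at 50.

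**Figure D4:**
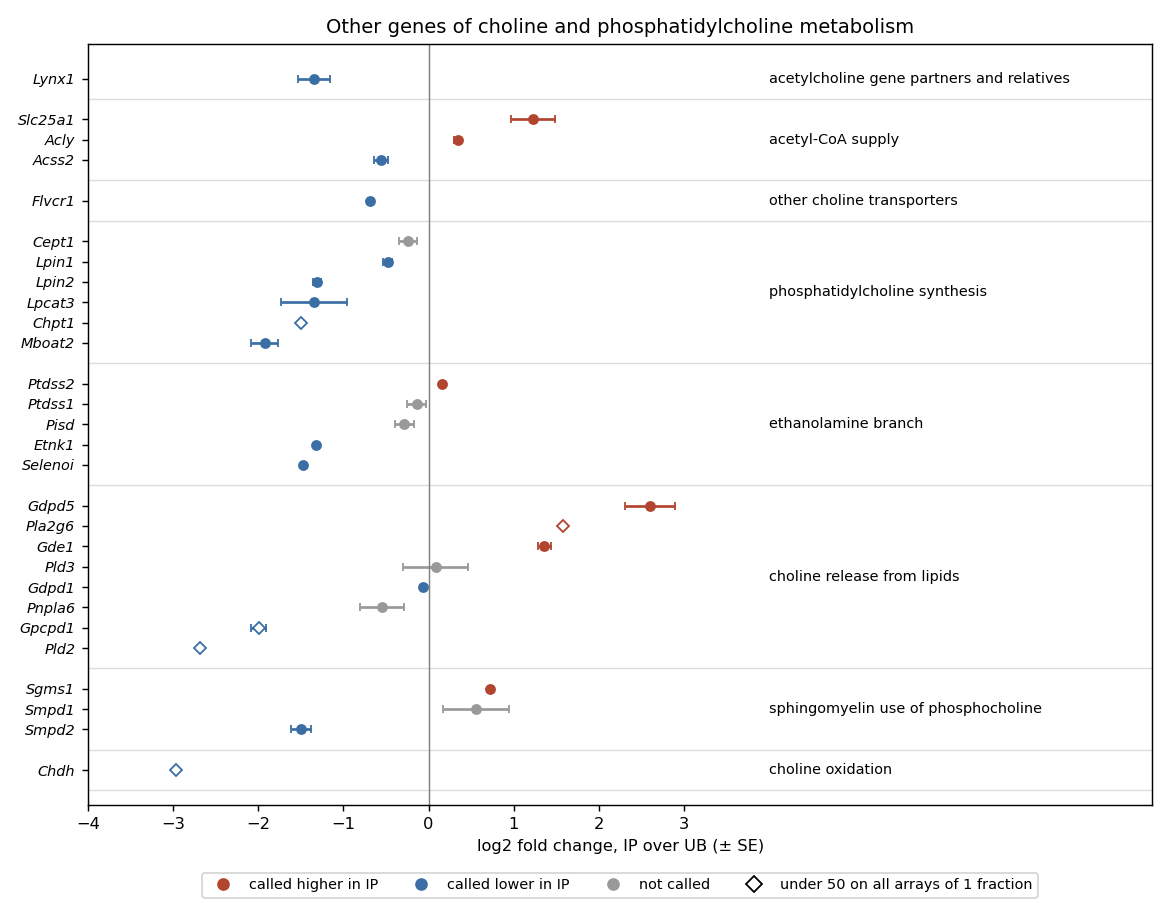
Log2 fold change of IP over UB (x axis, bars are SE) for the 28 tested genes of choline and phosphatidylcholine handling other than those named in the opening, grouped by role. Red was called higher, blue lower and grey not called, and open diamonds were under 50 on all 3 arrays of 1 fraction. The synthesis genes lay at or below -0.24, and Gdpd5 at 2.60 lay furthest right. Open diamonds have no exact place, since 1 fraction had no signal.

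The genes called lower in IP shared that direction with most markers of oligodendrocytes, astrocytes, and thalamic and lateral habenula neurons. Over the whole table, 43.5% of tested probe sets were called lower. The summed linear level of the 9 oligodendrocyte markers was 212 to 256 on the IP arrays, against 22132 to 24963 on the UB arrays, and 8 of the 9 had no IP array at 50. The sum of the 10 astrocyte markers was 1252 to 1708 on the IP arrays, against 23528 to 29242 on the UB arrays. Of these 10, 7 had no IP array at 50, and Gfap, Slc1a2, Slc1a3 and Aldh1l1 were at the bottom of the IP scale. Aldoc was called lower and still had 10.05 in IP, against 14.03 in UB, and Agt was not called (8.18 in IP, 8.91 in UB). The 10 thalamic and lateral habenula markers summed to 1438 to 1548 on the IP arrays, against 24070 to 25662 on the UB arrays. The median log2 fold change was -7.37 for oligodendrocyte, -5.42 for astrocyte and -6.01 for thalamic and lateral habenula markers tested, while Slc44a1, Pcyt1b and Chka lay at -4.22, -3.42 and -3.11. Most markers behind these medians had no IP array at 50. The medians, like the values of Pcyt1b and Chka, therefore have no exact size. The part of these cells in the levels of Slc44a1, Chka, Pcyt1b and the other genes lower in IP was not tested. The genes called higher in IP shared that direction with the medial habenula markers and with 30.9% of all tested probe sets. Those markers summed to 86245 to 108172 on the IP arrays, against 13081 to 21043 on the UB arrays, at a median log2 fold change of 2.71.

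The genes nearest to a choline gene over the 6 arrays were sought among 8602 other named and tested genes, by Euclidean distance on the log2 scale after each gene was centred on its own mean. The 3 nearest to Slc18a3 were St6galnac1, Wfikkn2 and Wnt11, at distances of 1.70, 1.72 and 1.74 and with log2 fold changes of 6.45, 6.36 and 6.37. None came as close as the neighbours of Slc44a1 and Ache did. This distance largely follows the fold change, and Slc18a3 had the highest fold change of all tested probe sets. Its UB levels were without signal, so its distances have no exact size. The nearest to Slc44a1 were Ptger3, St8sia5 and Cpm, at 0.13, 0.19 and 0.20, with fold changes between -4.16 and -4.26 on the log2 scale. The nearest to Ache were Tmem59l, Trim3 and Aplp1, at 0.41, 0.42 and 0.48, and like Ache they were not called.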

How the data were processed

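The deposited values are log2 levels, 1 per probe set. The authors made them with GCRMA, per the submitters' processing notes, a method that corrects background, normalizes by quantiles and summarizes probes. The sources used here do not give its version. Replicates were normalized within groups, per the series' design text, and the lowest value differed between IP (2.10) and UB (2.05). RNA was labelled from 20 ng over 2 cycles of amplification, per the labels. Probe sets carry an Entrez gene ID, and all 16464 with a gene symbol were matched to RefSeq (GRCm38.p6) for names.

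The IP arrays were shifted by the mean IP minus UB difference over 18 biotinylated controls, as the design text recommends scaling on them. Probe sets with a level of 50 or more on at least 3 of 6 arrays (8960) were fitted with limma 3.58.1 in R 4.3.3, with variances following the mean level, two-sided, Benjamini-Hochberg over all 8960, called at an adjusted p under 0.05. Without adjustment, 6859 had p under 0.05. Among tested probe sets, 1789 had the same value on every IP array and 1578 on every UB array, and such ties make the SE too small. Where a fraction had no array at 50, the fold is against 50 and is written "at least". The labels tie each UB array to the preparation of the same replicate number, and deviations from fraction means of same-numbered arrays correlated (r = 0.66, 0.54 and 0.31 over 6180 untied probe sets). Among differently numbered arrays, IP 3 with UB 2 gave 0.35 and IP 2 with UB 3 gave 0.28. Those with 1 array of replicate 1 lay between -0.57 and -0.38. For IP 3 the correlations thus did not single out the UB array of its own number. The genes and lists were chosen with earlier results of these data known. The genes to name were all 10, any of the role lists that has a probe set (the 28 tested are named, and some of the others), and for Slc18a3, Ache and Slc44a1 the 3 nearest genes. On simulated data for IP against UB (8960 probe sets), changes of 0.5, 1, 2 and 4 on the log2 scale were recovered in 34%, 56%, 78% and 98% of cases, with 5 false calls among 8760. Those 8760 were left unchanged, whereas 74.5% of the real probe sets were called. The false calls therefore give no error rate for the calls here. Tables and figures used Python 3.11.15, pandas 2.3.3 and matplotlib 3.10.9.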

Additional observations from a re-analysis of the deposited data

How the results depend on the processing

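The fitted values of Slc18a3 and Slc5a7 stayed higher and those of Slc44a1, Chka and Pcyt1b lower, each called, in every alternative that gave them a value: 22 for Slc18a3, Slc44a1 and Pcyt1b, 21 for Chka and 20 for Slc5a7. Of these, Slc18a3, Slc5a7, Chka and Pcyt1b passed the filter through 1 fraction only and so had to differ. The bound of Slc5a7 was lost with the poly-A controls and that of Pcyt1b with the medians of all probe sets made equal. Scaling moved Ache, Slc44a2 and Pcyt1a across 0. With the medians of all probe sets made equal, Ache was at 0.88 and Slc44a2 at 1.04, and 6680 probe sets were called higher and 1587 lower. With quantile normalization Slc44a2 was at 0.44, and Pcyt1a minus Pcyt1b changed by 4.61. With the poly-A controls, whose mean level was 7.88, 9.22 and 8.51 on the IP arrays and 7.19, 6.98 and 6.71 on the UB arrays, Pcyt1a was at -0.16, Ache was called lower (-2.24, limma adjusted p = 0.0132), and 405 probe sets were called higher and 7724 lower. With no filter on dim probe sets 8557 were higher and 5998 lower. With tied probe sets left out, 4 choline genes remained tested, of which 1 was higher and 2 lower, and 2123 probe sets were lower. The replicate block called Ache lower (limma adjusted p = 0.0270; range over its alternatives 0.0132 to 0.683), with 2911 probe sets higher and 3963 lower, and changed no other call among the 8 choline genes tested, and 6 of the 28 calls of the role lists. Taking the control offset array by array also called Ache lower (limma adjusted p = 0.0427), where Slc44a2 was not called (0.111). The cause of these changes was not tested. Without 1 array or 1 preparation, no choline gene changed its call. Levels near 50, as of Slc44a1 in IP and Pcyt1a in UB, limit their folds.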
